A study of Mus musculus with 4 samples.

Results

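The genes described here are 5 secreted proteins known mainly from mouse myeloid cells: the chitinase-like proteins Chi3l1, Chi3l3 and Chi3l4 and the resistin-like proteins Retnla and Retnlg. They were chosen by symbol, with their reads and RPKM in these libraries known, so their values are given as a description, and 4 of the 5 had a row in the files, out of 17550 genes listed in any library. Chi3l4 had no row in any of the 4 libraries. The libraries were made from total RNA of the left ventricle of C57BL/6 mice aged 8 weeks, 3 days after an induced myocardial infarction. The libraries comprise infarcted tissue labelled Neil3-/-, non-infarcted tissue labelled Neil3-/-, infarcted wild-type tissue and non-infarcted wild-type tissue, with 1 library for each. All 4 groups had the infarction, so no uninjured heart is among them, and the labels say neither whether a library was 1 mouse or a pool nor which part of Neil3 was deleted.

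Chitinase-like proteins keep the fold of the glycosyl hydrolases that cut chitin but lack the catalytic activity, and bind sugars instead. In mice Chi3l3 (also called Ym1) and Retnla (also called Fizz1 or RELM-alpha) are widely used marks of macrophages activated by interleukin-4 or interleukin-13 through the transcription factor Stat6, and Arg1 is the third classical mark of that state. Chi3l3 is also made by neutrophils and by monocytes, and Retnlg (RELM-gamma) is made mainly by neutrophils. Chi3l1, known in mice as BRP-39, is made by macrophages, neutrophils and several tissue cells.

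The libraries held 14.3 M to 18.2 M uniquely assigned reads. Neil3, a DNA glycosylase of base excision repair, did not have fewer reads in the libraries labelled Neil3-/-: it was at 18.5 RPKM there in infarcted tissue, against 3.95 RPKM in wild type, and at 12.0 RPKM in non-infarcted tissue, against 1.83 RPKM in wild type. RPKM is the number of reads per kilobase of gene length and per 1 M reads of the library (M, mega). The genotype is therefore called by its label throughout. The 8 cardiomyocyte markers listed were all present and summed to between 10640 and 32159 RPKM per library. All differences below are between single libraries, so none has a replicate check, and no test was run. The intervals in parentheses are exact 95% intervals that cover counting error only.

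Chi3l3 had more reads than any other gene of the group in every library. It was higher in infarcted than in non-infarcted tissue and lower in the libraries labelled Neil3-/- than in wild type. It had 871 reads (30.5 RPKM, 28.5 to 32.6) in the infarcted library labelled Neil3-/-, 67 reads (2.99 RPKM, 2.32 to 3.80) in its non-infarcted counterpart, 2104 reads (77.8 RPKM, 74.5 to 81.2) in wild-type infarcted tissue and 243 reads (10.4 RPKM, 9.14 to 11.8) in the non-infarcted wild-type library. The order of the levels was thus wild-type infarcted, labelled Neil3-/- infarcted, wild-type non-infarcted and labelled Neil3-/- non-infarcted, and no neighbours in that order had overlapping counting intervals. Reads covered 79.7% to 94.7% of the gene model. In the 4 libraries, Chi3l3 stood at percentiles 38.6 to 94.6 of all listed genes by RPKM.

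**Figure D1:**
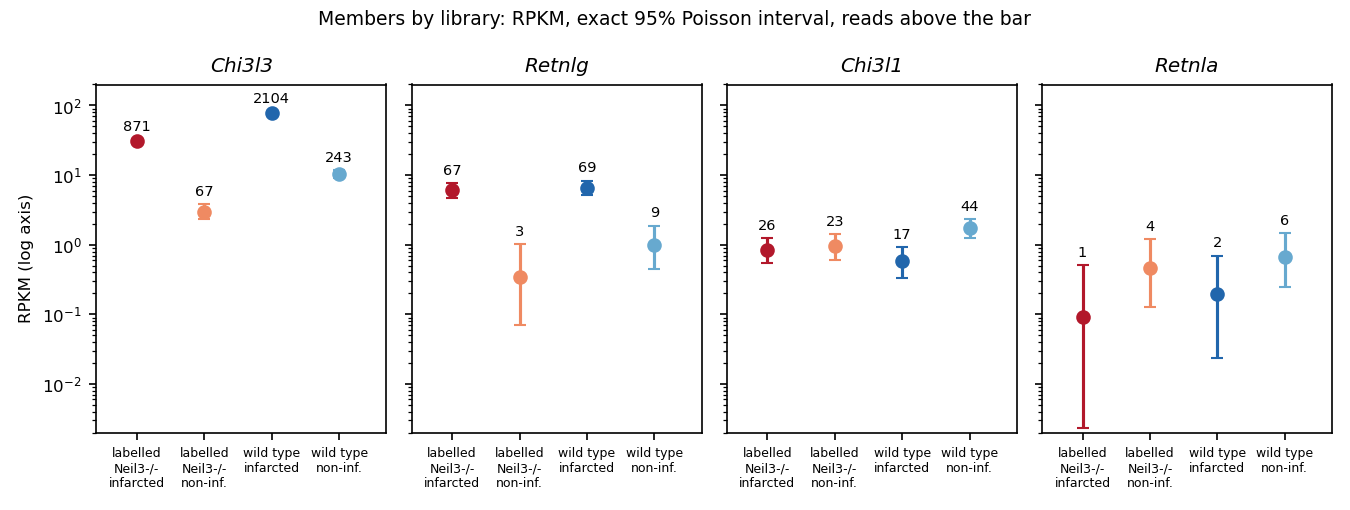
RPKM of the 4 listed genes in each of the 4 libraries, on a log axis shared by all panels. Points are single libraries, bars are exact 95% Poisson intervals and the numbers above them are reads. Chi3l3 has between 67 and 2104 reads, and Retnla no more than 6.

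Chi3l4 (Ym2), the closest relative of Chi3l3, had no row. In RefSeq the genes lie on the same strand of chromosome 3, and their coding sequences in GENCODE transcripts are 94.4% identical. If Chi3l4 was among the genes counted, a count of 0 sets an upper limit in RPM (reads per 1 M reads of the library). The limit is 0.165 RPM in the infarcted and 0.210 RPM in the non-infarcted library labelled Neil3-/-. In wild type it is 0.174 RPM in infarcted and 0.201 RPM in non-infarcted tissue. Of windows of 50 bases along the Chi3l4 transcript, 18.5% occur unchanged in transcripts of other chitinase genes, and 27.8% of windows of 35 bases do, so most reads from Chi3l4 could have been told from Chi3l3. The read length and the gene models used for counting are not stated in the labels or files, and whether Chi3l4 was among the models counted cannot be read from files that list only genes with reads. The Chi3l3 read number may thus hold some reads of Chi3l4.

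The sequence before the start of each gene shows how alike the pair is although only Chi3l3 had a row. The 250 bases upstream of the RefSeq start are given in GRCm38.p6, whereas the reads were counted on mm9. The window is chr3:106167565-106167814, minus strand, for Chi3l3 and chr3:106219480-106219729, minus strand, for Chi3l4. Capitals mark matches, on either strand, to TATAAA (the TATA box), TTCNNNGAA (bound by STAT factors), TTCNNNNGAA (the wider spacing favoured by Stat6), TTGCNNAA (C/EBP) and AGGAAG (ETS factors such as PU.1).
Chi3l3: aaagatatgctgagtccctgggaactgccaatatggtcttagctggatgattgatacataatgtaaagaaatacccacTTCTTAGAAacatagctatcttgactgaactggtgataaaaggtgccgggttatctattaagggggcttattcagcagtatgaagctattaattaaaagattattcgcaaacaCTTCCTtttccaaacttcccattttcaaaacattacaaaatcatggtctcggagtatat
Chi3l4: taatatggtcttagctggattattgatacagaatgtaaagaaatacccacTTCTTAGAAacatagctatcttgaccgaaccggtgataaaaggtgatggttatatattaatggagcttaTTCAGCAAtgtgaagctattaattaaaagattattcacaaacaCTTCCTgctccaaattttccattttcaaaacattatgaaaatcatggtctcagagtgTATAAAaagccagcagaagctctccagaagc
A local alignment of these windows matched 201 of 222 aligned bases, 90.5%. Both hold a TTCTTAGAA match to the STAT letters, which 7.02% of 32851 mouse promoter windows of this length hold, and both hold AGGAAG on the other strand, as 29.5% of windows do. Chi3l4 alone has TTGCNNAA, found in 9.56% of windows. TATAAA, which 12.4% of windows hold at any position, lies 31 bases before the start in Chi3l4, and in Chi3l3 it begins 3 bases before the annotated start and runs across it. The Chi3l1 window holds none of the 5 motifs.

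Retnlg followed the same direction as Chi3l3 between tissues at a lower level. It had 67 reads (6.03 RPKM, 4.68 to 7.66) in the infarcted library labelled Neil3-/-, 3 reads (0.344 RPKM, 0.0710 to 1.01) in its non-infarcted counterpart, 69 reads (6.55 RPKM, 5.10 to 8.29) in wild-type infarcted tissue and 9 reads (0.991 RPKM, 0.453 to 1.88) in the non-infarcted wild-type library. The infarcted libraries stood above the non-infarcted ones, and the genotypes overlapped within counting error in both tissues.

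Retnla, which is expressed in parallel with Chi3l3 in interleukin-4 treated macrophages, had almost no reads. It had 1 read (0.0919 RPKM, 0.00233 to 0.512) in the infarcted library labelled Neil3-/-, 4 reads (0.468 RPKM, 0.128 to 1.20) in its non-infarcted counterpart, 2 reads (0.194 RPKM, 0.0235 to 0.700) in wild-type infarcted tissue and 6 reads (0.674 RPKM, 0.247 to 1.47) in the non-infarcted wild-type library. All 4 intervals overlapped, so no order of the libraries can be given at this depth. It never reached 1 RPKM, and in infarcted tissue it was at 0.0919 RPKM where Chi3l3 was at 30.5 RPKM (labelled Neil3-/-), and at 0.194 RPKM where Chi3l3 was at 77.8 RPKM (wild type).

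Retnlg and Retnla lie on the same strand of chromosome 16, and their upstream windows are shown because the genes stood so differently in infarcted tissue. The window is chr16:48872358-48872607, plus strand, for Retnlg and chr16:48842359-48842608, plus strand, for Retnla, in GRCm38.p6, with capitals as above.
Retnlg: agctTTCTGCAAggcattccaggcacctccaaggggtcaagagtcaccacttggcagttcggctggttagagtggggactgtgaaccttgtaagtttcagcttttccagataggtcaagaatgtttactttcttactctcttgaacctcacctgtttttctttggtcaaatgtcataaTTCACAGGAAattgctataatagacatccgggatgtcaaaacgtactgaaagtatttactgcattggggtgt
Retnla: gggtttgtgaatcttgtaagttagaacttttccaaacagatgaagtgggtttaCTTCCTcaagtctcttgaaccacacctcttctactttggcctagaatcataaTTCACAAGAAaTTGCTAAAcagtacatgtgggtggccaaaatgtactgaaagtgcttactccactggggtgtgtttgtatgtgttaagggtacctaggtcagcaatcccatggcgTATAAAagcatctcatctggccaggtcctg
The local alignment matched 138 of 178 aligned bases, 77.5%. Each window holds a match to TTCNNNNGAA, which 5.85% of promoter windows hold: TTCACAGGAA in Retnlg and TTCACAAGAA in Retnla, 72 and 145 bases before the annotated start. In Retnla it is followed after 1 base by the C/EBP match TTGCTAAA. These matches describe letters in the windows and were not tied to binding.

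Chi3l1 was not higher in infarcted tissue. It had 26 reads (0.838 RPKM, 0.548 to 1.23) in the infarcted library labelled Neil3-/-, 23 reads (0.944 RPKM, 0.599 to 1.42) in its non-infarcted counterpart, 17 reads (0.578 RPKM, 0.337 to 0.925) in wild-type infarcted tissue and 44 reads (1.73 RPKM, 1.26 to 2.33) in the non-infarcted wild-type library. Wild-type non-infarcted tissue was the highest, with an interval that overlapped that of non-infarcted tissue labelled Neil3-/- and lay above those of both infarcted libraries. The other 3 libraries overlapped within counting error.

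The comparison of infarcted with non-infarcted ventricle asks which of these genes accompany the injured tissue. Chi3l3 was 10.2-fold higher (7.96 to 13.3) in infarcted tissue in the libraries labelled Neil3-/- and 7.47-fold higher (6.54 to 8.57) in wild type. Retnlg was 17.5-fold higher (5.75 to 87.2) in the libraries labelled Neil3-/-, on 3 reads in non-infarcted tissue, and 6.62-fold higher (3.29 to 15.1) in wild type. Chi3l1 was 3.00-fold lower (1.68 to 5.60) in infarcted tissue in wild type, while in the libraries labelled Neil3-/- its ratio was 0.888 (0.487 to 1.63). Retnla had ratios of 0.196 (0.00399 to 1.98) in the libraries labelled Neil3-/- and 0.288 (0.0284 to 1.61) in wild type, intervals that include 1.

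**Figure D2:**
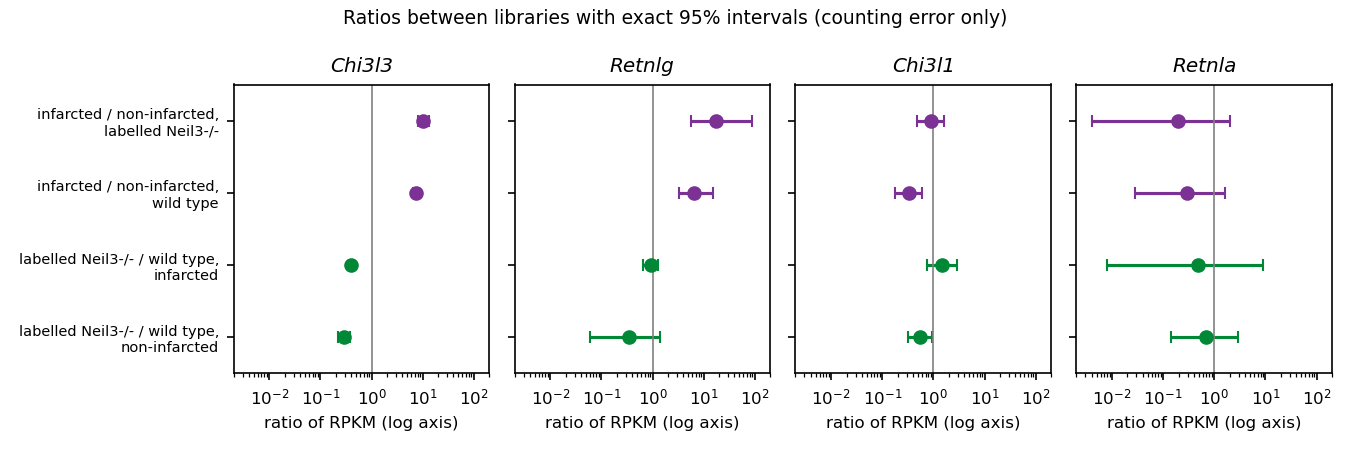
Ratios of RPKM between pairs of libraries for each gene, on a log axis shared by all panels, with exact 95% intervals of the counting error. The vertical line marks a ratio of 1. Chi3l3 lies above 1 for infarcted over non-infarcted tissue and below 1 for labelled Neil3-/- over wild type.

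Genes were counted on the log2(RPKM + 1) scale, provided that 1 or both of the compared libraries reached 1 RPKM, and every count of genes past 2-fold below is on that scale. Chi3l3 and Retnlg were past 2-fold, higher in infarcted tissue, in each genotype, and no gene of the group was 2-fold lower. They were 2 of 2 genes of the group compared in the libraries labelled Neil3-/-, where 8.20% of 12563 genes were 2-fold higher and 6.07% lower, and 2 of 3 in wild type, where 6.21% of 12515 genes were higher and 3.60% lower. Because the group was named with these values known, nothing is read from these shares. Of the genes past 2-fold, 57.5% were higher in the libraries labelled Neil3-/- and 63.3% in wild type. TMM and median-ratio scaling, which assume that most genes do not differ, put these shares at 34.1% and 31.9% in the libraries labelled Neil3-/- and at 37.2% and 36.5% in wild type. They removed most of a median log2 ratio over all genes of 0.24 and 0.21. The log2 ratios of Chi3l3 and Retnlg were 2.98 and 2.39 in the libraries labelled Neil3-/-, the 9th and 32nd highest of all genes compared, and 2.79 and 1.92 in wild type, the 6th and 48th highest. With TMM scaling they were 2.78 and 2.25 in the libraries labelled Neil3-/-, and 2.58 and 1.77 in wild type. The log2 ratio of Chi3l1 in wild type was -0.79, and Retnla was below 1 RPKM in every library.

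The comparison of genotypes asks whether the level differs between labelled Neil3-/- and wild type in the same tissue. Chi3l3 was 2.55-fold lower (2.35 to 2.76) in the infarcted library labelled Neil3-/- than in the wild-type one. In non-infarcted tissue labelled Neil3-/- it was 3.48-fold lower (2.65 to 4.63). On the log2(RPKM + 1) scale the ratios were -1.32 and -1.52, the 11th lowest of 12464 and the 6th lowest of 12226 genes compared. Chi3l3 was the 1 gene past 2-fold, lower, of 2 genes of the group compared in each tissue. Of all genes, 0.241% were 2-fold lower and 0.249% higher in infarcted tissue, and 0.188% were lower and 0.254% higher in non-infarcted tissue. Nothing is read from these shares either. Chi3l3 was also 1 of 6 genes at least 2-fold lower in both tissues, out of 30 lower genes in infarcted and 23 in non-infarcted tissue. Of 11974 genes compared in both tissues, 7 were at least 2-fold higher in both, out of 31 higher genes in each tissue. The comparisons in infarcted and in non-infarcted tissue share no library. The labels do not say, however, whether both tissues of a genotype came from the same hearts.

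For the other genes the genotype difference was smaller or not resolved at this depth. Retnlg had a ratio of 0.921 (0.648 to 1.31) between labelled Neil3-/- and wild type in infarcted tissue and 0.347 (0.0605 to 1.39) in non-infarcted tissue, where it had 3 and 9 reads. Chi3l1 had a ratio of 1.45 (0.758 to 2.85) in infarcted and of 0.545 (0.314 to 0.922) in non-infarcted tissue. Retnla had ratios of 0.474 (0.00804 to 9.11) and 0.695 (0.144 to 2.93), on 1 to 6 reads. The infarct ratio in the libraries labelled Neil3-/- divided by that in wild type was 1.37 (1.03 to 1.84) for Chi3l3, 2.65 (0.622 to 15.8) for Retnlg, 2.66 (1.12 to 6.35) for Chi3l1 and 0.682 (0.00928 to 18.1) for Retnla. Only the intervals of Chi3l3 and Chi3l1 lay above 1.

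Markers of the cells that make these proteins were set beside them, for lists that were drawn up with earlier results known. In bulk tissue, fewer cells of a type and less RNA per cell cannot be told apart. Of 11 neutrophil markers 10 had rows, and Ly6g had none. Their summed level was 317 RPKM in infarcted and 32.3 RPKM in non-infarcted tissue labelled Neil3-/-, and 263 RPKM and 36.1 RPKM in wild type. All 10 were past 2-fold, higher in infarcted tissue, in each genotype. Of all genes, 8.20% were in the libraries labelled Neil3-/- and 6.21% in wild type. The median log2 ratio of the 10 was 2.49 in the libraries labelled Neil3-/- (0.24 over all genes). In wild type it was 2.20 (0.21 over all genes). In the libraries labelled Neil3-/-, the calprotectin subunit S100a8 was 16.5-fold higher (11.5 to 24.5) in infarcted tissue. Its partner S100a9 was 9.62-fold higher (7.49 to 12.5). In wild type S100a8 was 8.44-fold higher (6.39 to 11.4), and S100a9 had 617 reads in infarcted against 69 in non-infarcted tissue, a ratio of 7.72.

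Between genotypes, no neutrophil marker was 2-fold apart in either tissue. Few genes of any kind were. For the infarcted pair of libraries, 0.249% passed 2-fold upward in the one labelled Neil3-/- and 0.241% downward. For the non-infarcted pair these shares were 0.254% and 0.188%. A short list would thus mostly hold no such gene, so nothing is read from its absence here or in the lists below. In infarcted tissue all 10 were above 0 on the log2 scale in the library labelled Neil3-/-, between 0.06 and 0.71, where Chi3l3 was at -1.32. In non-infarcted tissue 9 were compared, between -0.67 and 0.12, where Chi3l3 was at -1.52. S100a8 was the lowest of them there, at 5.53 RPKM in the library labelled Neil3-/- against 9.42 RPKM in wild type. Genes of neutrophil granules and precursors summed to between 40.1 RPKM, in non-infarcted tissue labelled Neil3-/-, and 93.7 RPKM, in infarcted wild-type tissue. Of 5 of these genes compared in infarcted tissue, 4 were below 0 in the library labelled Neil3-/- (median -0.30), as were 2 of 3 in non-infarcted tissue (median -0.31), and none was 2-fold apart. Of the 11 genes on the list, Mpo, Elane, Ctsg, Ltf, Ngp and Camp had at most 8 reads in any library. Prtn3, a protease of primary granules, had 10 and 1 reads in infarcted and non-infarcted tissue labelled Neil3-/-, and 18 and 0 reads in wild type. Its genotype ratio in infarcted tissue was 0.527 (0.217 to 1.20), an interval that includes 1. Prtn3 was compared there only because the wild-type library reached 1.06 RPKM, against 0.559 RPKM in the library labelled Neil3-/-. With TMM scaling, 4 genes of the list were compared in infarcted tissue and 3 were below 0 (median -0.19). Cd177, also among the 4 below 0 without that scaling, was at -0.04. Hp was the gene above 0 in infarcted tissue, with a genotype ratio of 1.28 (1.12 to 1.46). In non-infarcted tissue the ratio of Hp was 0.778 (0.594 to 1.02). Lcn2, which is also made outside neutrophils, was lower in the libraries labelled Neil3-/-, with a ratio of 0.584 (0.528 to 0.646) in infarcted and 0.566 (0.501 to 0.640) in non-infarcted tissue.

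Between genotypes within a tissue, monocyte and macrophage markers were mostly higher in the library labelled Neil3-/-, in which Chi3l3 was lower. Between tissues they were mostly higher in infarcted tissue, as Chi3l3 was, with 12 of 14 above 0 in each genotype. All 15 had rows, and they summed to 2439 RPKM in infarcted and 1293 RPKM in non-infarcted tissue labelled Neil3-/-, against 1795 RPKM and 839 RPKM in wild type. Of 14 compared, 12 were above 0 in the library labelled Neil3-/- in infarcted tissue (median 0.39) and 12 in non-infarcted tissue (median 0.60), and none was at least 2-fold apart in either. Lyz2, the lysozyme of myeloid cells, was 1.45-fold higher (1.42 to 1.48) in infarcted and 1.81-fold higher (1.74 to 1.88) in non-infarcted tissue labelled Neil3-/-. The complement gene C1qb had ratios of 1.39 (1.33 to 1.44) in infarcted and 1.66 (1.57 to 1.76) in non-infarcted tissue.

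**Figure D3:**
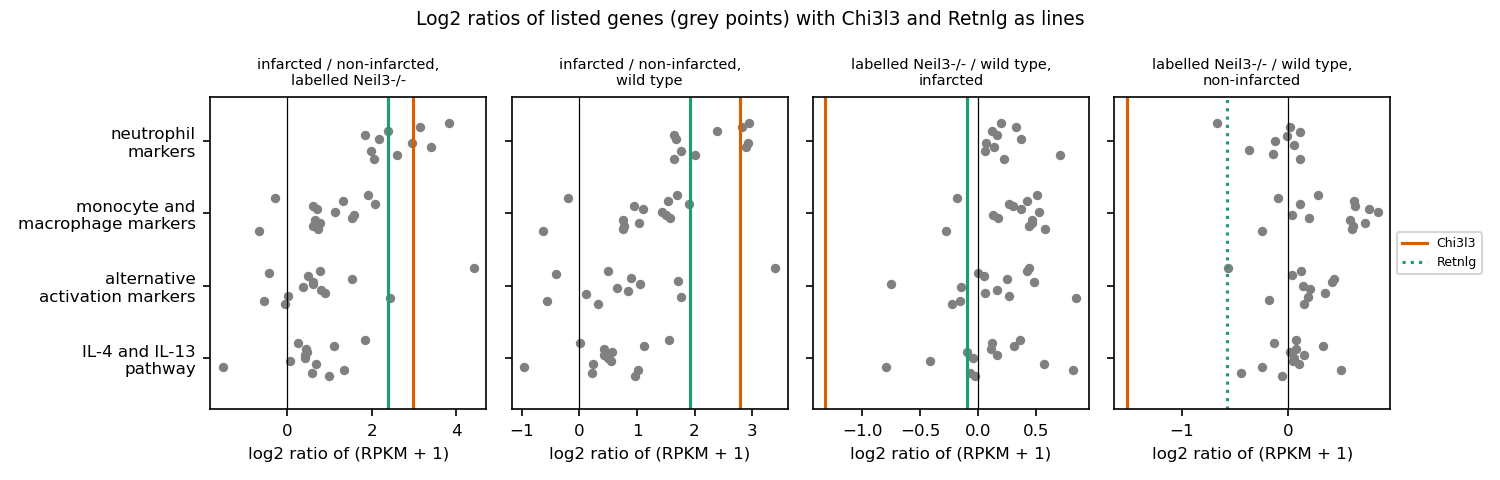
Log2 ratios of (RPKM + 1) of the listed genes at 1 RPKM or more (grey points) in the 4 comparisons, with Chi3l3 (orange) and Retnlg (green, dotted where it was below 1 RPKM) as vertical lines. In the genotype comparisons Chi3l3, at -1.32 and -1.52, lies left of every point.

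Expressed per 100 RPKM of summed neutrophil markers, a ratio chosen after the values were seen, Chi3l3 was at 9.64 (9.01 to 10.3) in infarcted and 9.26 (7.17 to 11.8) in non-infarcted tissue labelled Neil3-/-, and at 29.6 (28.4 to 30.9) and 28.8 (25.3 to 32.7) in wild type. These intervals cover the Chi3l3 reads only. On this ratio the tissues of 1 genotype overlapped and the genotypes did not. Retnlg was at 1.90 (1.48 to 2.42) and 1.06 (0.220 to 3.11) in the libraries labelled Neil3-/-, and at 2.50 (1.94 to 3.16) and 2.74 (1.25 to 5.20) in wild type, so that all 4 overlapped. The sum is weighted to S100a8 and S100a9, at 91.5 and 92.4 of 317 RPKM in infarcted tissue labelled Neil3-/-. Infarct ratios of single markers ran from 4.61 (Cxcr2) to 23.0 (Il1r2) in the libraries labelled Neil3-/-. In wild type they ran from 4.02 to 12.5. Whether Chi3l3 overlaps between tissues thus depends on which markers are summed. Per 100 RPKM of monocyte and macrophage markers, Chi3l3 was at 1.25 (1.17 to 1.34) in infarcted and 0.231 (0.179 to 0.294) in non-infarcted tissue labelled Neil3-/-, and at 4.33 (4.15 to 4.52) and 1.24 (1.09 to 1.41) in wild type, which differed by tissue as well as by genotype.

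**Figure D4:**
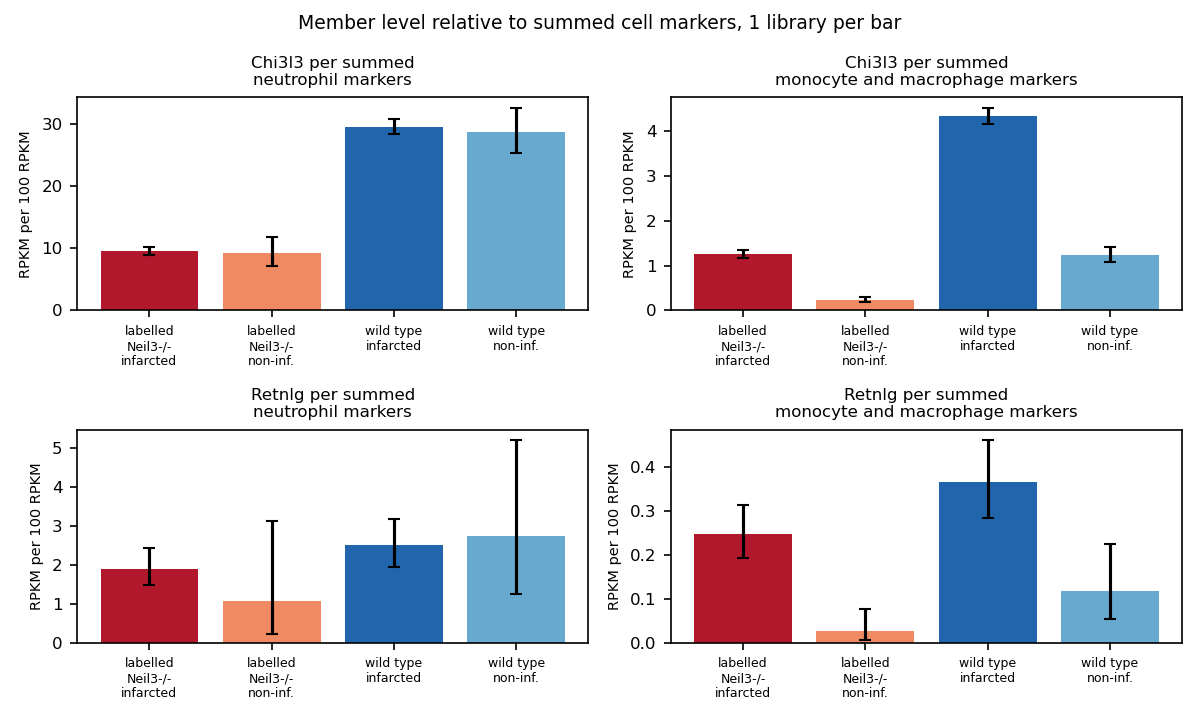
Chi3l3 (upper row) and Retnlg (lower row) in RPKM per 100 RPKM of summed neutrophil markers (left) or monocyte and macrophage markers (right), 1 bar per library, with the exact 95% Poisson interval of the gene's own reads. Chi3l3 per neutrophil marker is 9.64 and 9.26 in the libraries labelled Neil3-/-, and 29.6 and 28.8 in wild type.

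No gene on the list of other alternative activation markers was 2-fold apart between genotypes on the log2(RPKM + 1) scale. As for the neutrophil markers, nothing is read from this absence. The nearest in infarcted tissue to Chi3l3 was Ccl24, an eosinophil-attracting chemokine named here after its values were seen, at 1.28 RPKM in the library labelled Neil3-/- against 2.83 RPKM in wild type. Its plain RPKM ratio was 0.452 (0.282 to 0.708), and its log2 ratio with 1 RPKM added was -0.75. The farthest on the other side was Msr1, at 51.4 RPKM in the library labelled Neil3-/- against 28.1 RPKM in wild type. Its plain ratio was 1.83 (1.73 to 1.94) and its log2 ratio 0.85. The chemokine Ccl22 also lay on that side, at 1.24 RPKM in the library labelled Neil3-/- against 0.606 RPKM in wild type. On 41 and 19 reads, it had a plain ratio of 2.05 (1.16 to 3.73) and a log2 ratio of 0.48. Arg1, which uses up arginine in wound-type macrophages, was at 161 RPKM in infarcted and 6.63 RPKM in non-infarcted tissue labelled Neil3-/-, and at 118 RPKM and 10.2 RPKM in wild type. Its ratio between labelled Neil3-/- and wild type was 1.36 (1.30 to 1.43) in infarcted and 0.647 (0.521 to 0.802) in non-infarcted tissue. Mrc1, the mannose receptor, was 1.35-fold higher (1.29 to 1.41) in infarcted tissue labelled Neil3-/-, and the transglutaminases Tgm2 and F13a1 had ratios of 0.900 (0.884 to 0.916) and 1.12 (1.07 to 1.17). Of 14 and 11 genes of this list compared between genotypes in infarcted and non-infarcted tissue, the medians were 0.11 and 0.15, against 0.02 and 0.01 over all genes. Between tissues, 3 of 14 were 2-fold higher in infarcted tissue in the libraries labelled Neil3-/- and 4 of 12 in wild type (3 with TMM scaling), and none was 2-fold lower. Of all genes, 8.20% and 6.21% were 2-fold higher. The shares were 4.37% and 3.64% with TMM scaling, and 4.11% and 3.58% with median-ratio scaling. They are the base for the lists below too. Because the lists were drawn up with earlier results known, nothing is read from these counts.

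The interleukin-4 pathway was present as receptor and signalling genes with almost no ligand. Il13 had no row, and Il4 had 1 read in all, in wild-type infarcted tissue. Il4ra, the receptor chain shared by interleukin-4 and interleukin-13, was 3.68-fold higher (3.47 to 3.90) in infarcted tissue in the libraries labelled Neil3-/- and 3.03-fold higher (2.86 to 3.22) in wild type. Stat6, which was named for its role and not by its level, was at 36.3 RPKM in infarcted and 27.2 RPKM in non-infarcted tissue labelled Neil3-/-, and at 37.4 RPKM and 26.1 RPKM in wild type. Its ratio between labelled Neil3-/- and wild type was 0.971 (0.918 to 1.03) in infarcted tissue. Of 13 genes compared, none was at least 2-fold apart between genotypes in either tissue, 3 were past 2-fold, higher in infarcted tissue, in each genotype (2 in the libraries labelled Neil3-/- and 1 in wild type with TMM scaling), and Cish, a feedback inhibitor of cytokine signalling, was lower, with ratios of 0.343 (0.320 to 0.367) in the libraries labelled Neil3-/- and 0.509 (0.482 to 0.538) in wild type.

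Receptors and partners of these proteins were measured too. Between infarcted and non-infarcted tissue, Lgals3, a binding partner of Chi3l1, had ratios of 3.06 (2.88 to 3.27) in the libraries labelled Neil3-/- and 3.74 (3.47 to 4.02) in wild type. Cd44, a surface receptor of Chi3l1, had ratios of 3.26 (3.06 to 3.48) and 2.74 (2.58 to 2.92). Il13ra2, a receptor of Chi3l1, had 8 reads in each infarcted library and at most 1 read in each non-infarcted one. Cap1, known as a resistin receptor in human, had ratios of 2.28 (2.19 to 2.38) and 2.21 (2.12 to 2.32). Of 9 and 8 genes compared, 4 were past 2-fold, higher in infarcted tissue, in each genotype (3 in the libraries labelled Neil3-/- and 2 in wild type with TMM scaling), and none was 2-fold apart between genotypes. In the list of C/EBP and granulocyte factors, which also holds receptors, 5 of 8 genes were past 2-fold, higher in infarcted tissue, in each genotype. They were Cebpa, Spi1 (PU.1) and the receptors Csf3r, Csf2ra and Csf2rb, and Csf3r is also on the neutrophil list. TMM scaling left 5 in the libraries labelled Neil3-/- and 4 in wild type, and median-ratio scaling left 4 in each. Spi1 had ratios of 2.64 (2.34 to 2.98) in the libraries labelled Neil3-/- and 2.89 (2.54 to 3.30) in wild type. No gene of this list was 2-fold apart between genotypes.

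The rest of the chitinase and resistin families had few reads, except Chid1 and Ctbs. The true chitinases Chia and Chit1 had 1 read each in all, and Chi3l7 and Retnlb had no row. Retn, made by fat cells in mice, had 1 and 2 reads in infarcted and non-infarcted tissue labelled Neil3-/-, and 2 and 5 reads in wild type, with a listed length that differed in 1 file. Chid1, a lysosomal protein with a chitinase domain, had ratios between labelled Neil3-/- and wild type of 1.35 (1.19 to 1.54) in infarcted and 1.14 (0.995 to 1.32) in non-infarcted tissue. Ctbs, the lysosomal chitobiase, had ratios between infarcted and non-infarcted tissue of 1.67 (1.34 to 2.09) in the libraries labelled Neil3-/- and 2.28 (1.76 to 2.97) in wild type. Ovgp1, the oviduct glycoprotein, had 15 to 28 reads per library.

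Markers of eosinophils, mast cells, basophils and airway were low. Eosinophil markers summed to 4.61 RPKM in infarcted and 1.74 RPKM in non-infarcted tissue labelled Neil3-/-, and to 3.47 RPKM and 1.04 RPKM in wild type, with Epx and Prg3 without a row. Mast cell and basophil markers summed to between 4.88 RPKM, in non-infarcted tissue labelled Neil3-/-, and 14.3 RPKM, in infarcted wild-type tissue, and all but Kit were below 1 RPKM in every library. Lung and airway markers summed to no more than 0.530 RPKM, and Sftpc had no row. Adipocyte markers summed to 414 RPKM and 442 RPKM in infarcted and non-infarcted tissue labelled Neil3-/-, and to 392 RPKM and 399 RPKM in wild type, nearly all of it Fabp4, which capillary endothelium also makes. Adipoq, Plin1, Cidec and Lep were below 1 RPKM in every library. Cfd was at 1.07 and 3.02 RPKM in infarcted and non-infarcted tissue labelled Neil3-/-, and at 0.0626 and 3.48 RPKM in wild type. In infarcted tissue all 8 fibroblast markers were above 0 in the library labelled Neil3-/-, with a median log2 ratio of 0.61. In non-infarcted tissue 6 of 8 were (median 0.24), while Pdgfra was at -0.03 and Tcf21 at -0.18. Cardiomyocyte markers were lower in the libraries labelled Neil3-/-, with medians of -0.66 in infarcted and -0.11 in non-infarcted tissue. The part of these cell markers in the Chi3l3 difference was not tested.

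Likeness of pattern was measured as the distance between log2(RPKM + 1) values over the 4 libraries, each gene centred on its own mean, among 12703 other genes. Retnlg had close neighbours in F10, the clotting factor X gene (0.08), in Bmp2, a bone morphogenetic protein (0.11), and in Slpi, a protease inhibitor of neutrophils and epithelia (0.11). The nearest genes to Chi3l3 were much farther off, with Crct1 at 1.01, the monocyte chemokine Ccl7 at 1.05 and Igfbp3, an insulin-like growth factor binding protein, at 1.08. Crct1 was at 24.4 RPKM in infarcted and 3.12 RPKM in non-infarcted tissue labelled Neil3-/-, and at 33.6 RPKM and 4.59 RPKM in wild type, so it shared the tissue difference of Chi3l3 and had a smaller genotype difference. Chi3l1 was nearest to Sbk2 (0.11), Fam110b (0.16) and Htra4 (0.16). With 4 libraries, many genes can lie close by counting noise alone, and the distance is a description. Adding 1 RPKM also shrinks the spread of genes at low RPKM. The distances of Chi3l1 and Retnlg are thus not on an equal footing with those of Chi3l3.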

How the data were processed

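Total RNA of left ventricle was sequenced in 4 libraries, 1 per group. The authors' deposited files give counts of uniquely assigned reads per gene, RPKM, gene length and coverage in percent of the gene model, per the file headers, and list only genes with a read. The deposited RPKM equal reads per listed length and header total, with a largest relative error of 3.64e-14. Build mm9 is named in the submitters' processing notes, and no aligner or counting tool is given in the sources used here.

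A gene without a row was taken as 0 reads, with a limit of 3 reads. Ratios of RPKM carry exact Clopper-Pearson 95% intervals, levels exact Poisson intervals, and ratios of ratios exact conditional intervals (scipy 1.17.1), all for counting error only. Genes at 1 RPKM or more were counted at 2-fold on log2(RPKM + 1), with no p-values. The 2-fold counts and the ratio intervals were checked on simulated read numbers. The simulation held counting error only, with no variation between mice. It changed no genes at low RPKM, so it does not cover Retnla or Chi3l1. TMM (edgeR 4.0.16) and median-ratio (DESeq2 1.42.0) scalings were alternatives. The genes and 15 lists, with 137 of 147 genes found (2 by an older symbol), were chosen with earlier results of these data known. Named genes are the group, its families, Neil3, up to 4 genes of highest mean RPKM per list, with others named for their role after their values were seen, and the 3 most alike per gene with 20 reads or more. Upstream sequences are RefSeq, GRCm38.p6, matched for 5 of 5 genes, and transcripts GENCODE.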

Additional observations from a re-analysis of the deposited data

Results flagged for a closer look

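Chi3l1 stood on opposite sides of 1 in the genotype comparison: its ratio between labelled Neil3-/- and wild type was 1.45 (0.758 to 2.85) in infarcted tissue, on 26 and 17 reads, and 0.545 (0.314 to 0.922) in non-infarcted tissue, on 23 and 44 reads. The first interval includes 1, and the difference was not tested, since each group is 1 library. No group had enough libraries to look for a sample far from the others.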

How the results depend on the processing

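Under 8 alternatives (2 other pseudocounts, 3 other scalings, 2 other filters and a 1.5-fold threshold), Chi3l3 stayed at least 2-fold higher in infarcted tissue in each genotype and at least 2-fold lower in infarcted tissue labelled Neil3-/- than in wild type. The exceptions among the counts came from the pseudocount and the threshold. With 5 RPKM added, which shrinks low genes by construction, the number at least 2-fold lower in non-infarcted tissue labelled Neil3-/- was 0 in place of 1 (Chi3l3 at -0.95), and the number higher in wild-type infarcted tissue was 1 in place of 2 (Retnlg no longer counted). With 0.1 RPKM added, or at 1.5-fold, the number lower in wild-type infarcted tissue was 1 in place of 0 (Chi3l1). Of 80 recomputed log2 ratios, 75 moved by less than the counting interval, 5 moved by more and none changed sign. The 5 were all of Chi3l3, the gene with the most reads. Genes with few reads have wide intervals, so their ratios could hardly count as moved. With 0.1 RPKM added, Retnla between tissues labelled Neil3-/- went from -0.43 to -1.57, and Retnlg from 2.39 to 3.79, both among the 75. The 75 are thus no measure of stability for these genes. TMM scaling gave 2.58 and median-ratio scaling 2.57 for Chi3l3 in wild-type infarcted over non-infarcted tissue, in place of 2.79, and these 2 scalings put the median of all genes in the infarct comparisons between 0.01 and 0.03. They gave 549 and 516 genes higher in infarcted tissue labelled Neil3-/- in place of 1030, and in wild type 455 and 448 higher in place of 777 and 769 and 781 lower in place of 450. With 0.1 RPKM added, 1578 genes were higher in the libraries labelled Neil3-/-, and 1262 in wild type. With 5 RPKM added, 407 were higher and 452 lower (in place of 762) in the libraries labelled Neil3-/-, and 299 and 227 in wild type. At 1.5-fold, 3146 were higher and 1557 lower in the libraries labelled Neil3-/-, and 2698 and 1196 in wild type. Between genotypes the 31 higher and 30 lower genes in infarcted tissue became 70 and 71, 9 and 7, and 188 and 193 under these 3 settings, and the 31 and 23 in non-infarcted tissue 70 and 48, 8 and 5, and 139 and 75. A filter at 5 RPKM left 18 and 14, and 16 and 9. No paired analysis was possible because each group has 1 library. Reads limit Retnla, with at most 6, and Retnlg in non-infarcted tissue, with 3 and 9.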
